A study of Arabidopsis thaliana with 6 samples.

Results

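The group I WRKY genes described here are 10 transcription factor genes chosen by name out of 32678 genes in the count table. The choice was made with earlier results of these data known. They are WRKY33 with its relatives WRKY25 and WRKY26, the pairs WRKY2 with WRKY34 and WRKY3 with WRKY4, and WRKY1, WRKY20 and WRKY44. All 10 had a row of counts, and 9 had enough reads to be tested. Polyadenylated RNA from Arabidopsis leaves was sequenced in 6 libraries, 3 from wild-type Col-0 and 3 from 35S:RPS4, a single transgenic line in which the broadly active 35S promoter drives RPS4, an intracellular immune receptor of the TIR-NBS-LRR class. Plants of both genotypes were 3.5 weeks old, had been kept at 28 °C, where RPS4 signalling is held back, and were sampled 2 h after a move to 19 °C, which releases it. Both groups therefore saw the same temperature change, and no library from before the move was analysed here. The comparison asks which of these genes differ between the genotypes at that time.

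WRKY factors bind a short promoter element, the W-box, through the WRKY domain, and group I members carry that domain in a pair of copies. In Arabidopsis immunity the best known of them is WRKY33, which is needed for resistance to necrotrophic fungi and for synthesis of the antimicrobial camalexin. It is phosphorylated by the mitogen-activated protein kinases MPK3 and MPK6, and is also held in a nuclear complex by MPK4 and its partner MKS1. Other group I factors act in heat tolerance, pollen, the zygote or the epidermis.

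In 35S:RPS4 leaves WRKY33 rose 51.6-fold while 8 of the 9 tested genes were not called different. Calls required a false discovery rate (FDR) below 0.01 together with a log2 fold change (log2FC, 35S:RPS4 minus Col-0) beyond 1 in either direction. WRKY33 was thus the 1 raised gene among the 9, and 0 were lowered. Over all 18382 tested genes 6.46% were raised and 1.37% lowered under the same rule. The closest to WRKY33 in direction was WRKY25, which lay higher in each 35S:RPS4 library but missed the FDR threshold. With the replicate number as a block WRKY25 was called (edgeR FDR 3.44e-06). WRKY34 had no read. The median log2FC of the 9 tested genes was 0.04, against 0.005 over all tested genes.

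Total gene counts were 28659022 to 31007551 per library. RPS4 itself was at 27.1 ± 5.11 CPM (counts scaled to 1e6 per library; SD, n = 3) in Col-0 and 757 ± 151 in 35S:RPS4 (log2FC 4.81, SE 0.22, edgeR FDR 3.25e-05), in the direction the labels give. The leaf markers RBCS1A, RCA, LHCB2.1 and CA1 were abundant and none of the 4 was called. The 5 pollen markers had 0 or 1 count per library, the 3 seed markers 0 to 2, and the floral genes AG, AP3 and PI 0 to 19. Of the guard cell genes, MYB60 was at 8.78 and 10.6 CPM in Col-0 and 35S:RPS4 and FAMA at 11.3 and 12.7, and neither was called. In whole leaves, fewer cells of a type and less RNA per cell cannot be told apart. The labels do not say whether libraries came from separate plants, so every test measures the spread between these libraries. Both libraries numbered 1 stood apart from the others for some of the genes below, and values without them are given for WRKY33, WRKY25 and WRKY26.

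WRKY33 (AT2G38470) lies on chromosome 2 of the TAIR10.1 assembly, from 16108235 to 16110766 on the plus strand, with 5 exons. Among the 10 genes, the 300 bp before its annotated start held the most full W-boxes (TTGACC or TTGACT, either strand), 3 in all. They began at -292, -96 and -32 from the start and all 3 lay in the minus orientation. Among 27443 genes, 32.3% of such windows held at least 1 full W-box and 1.57% held 3 or more. The window is printed because WRKY33 is the gene that was called, and W-boxes are the sites that WRKY factors themselves bind. In the sequence, 5′ to 3′ on the gene's strand, capitals mark the core of each W-box (TTGAC, here read as its complement GTCAA).
WRKY33, chr2:16107935-16108234, plus strand: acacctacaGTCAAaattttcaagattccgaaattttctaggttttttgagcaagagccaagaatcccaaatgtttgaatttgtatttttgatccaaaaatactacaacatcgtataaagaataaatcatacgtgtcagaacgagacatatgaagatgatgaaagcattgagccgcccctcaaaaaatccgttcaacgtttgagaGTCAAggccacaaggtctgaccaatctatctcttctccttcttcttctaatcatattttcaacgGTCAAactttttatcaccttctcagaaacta
WRKY25 and WRKY26 had 1 full W-box each within their windows, and 30 bases around each are shown for comparison, with the same use of capitals. Both stretches overlap the end of the neighbouring gene, AT2G30260 and AT5G07090 respectively, whereas the window of WRKY33 overlaps no other gene.
WRKY25, chr2:12905339-12905368, minus strand: catcaaaaaagaatatcttactgGTCAAcc
WRKY26, chr5:2204136-2204165, plus strand: cttacacaaaaaaGTCAAacattttggtgt
The W-box of WRKY25 began at -8 and that of WRKY26 at -58.

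The remaining windows had fewer such sites. WRKY20 had 1 full W-box, at -104, and WRKY44 had 1 core without the last base. WRKY25 had a further core at -61. WRKY1, WRKY2, WRKY3, WRKY4 and WRKY34 had neither form. The core alone was present in 50.4% of all windows, so 1 core is an ordinary find. The core CGCG, bound by the calmodulin-binding CAMTA factors, occurred 1 time each in WRKY1 and WRKY25 and 2 times in WRKY44, against 11.8% of all windows with at least 1. CGCG was not found in the window of WRKY33. The study gives the CAMTA core as CGyG, where y is C or T. The CGTG form, which is present in the printed WRKY33 window, was not counted. The heat shock element GAANNTTC, bound by heat shock factors, occurred 1 time, in WRKY44, against 11.5% of all windows. In the WRKY44 window a CGCG began at -151 and the W-box core at -146, without overlap. These matches describe letters in a window and were not tested against the transcript levels.

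**Figure D1:**
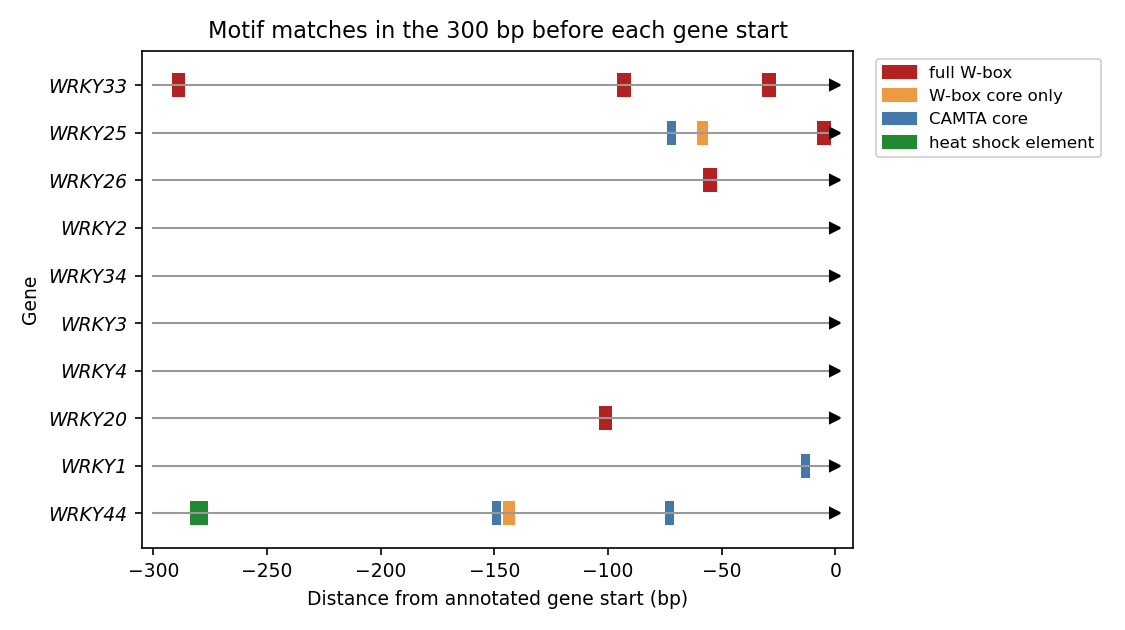
Matches to 4 short motifs in the 300 bp before the annotated start of each of the 10 genes, drawn to scale as distance from the start in bp (arrowhead at the start). WRKY33 holds 3 full W-boxes, WRKY25, WRKY26 and WRKY20 hold 1 each, and WRKY2, WRKY34, WRKY3 and WRKY4 hold no match to any of the motifs. The CAMTA core was counted as CGCG only.

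The read counts behind WRKY33 were large. In Col-0 it had 347, 694 and 784 reads in replicates 1 to 3, and in 35S:RPS4 it had 20306, 32948 and 33461. Scaled to library size, these were 11.0, 23.4 and 24.2 CPM in Col-0 and 681, 1118 and 1223 CPM in 35S:RPS4. Replicate 1 was the lowest library of each genotype, yet the lowest 35S:RPS4 library was far above the highest Col-0 library. The mean went from 19.5 ± 7.41 to 1007 ± 287 CPM (SD, n = 3), a ratio of means of 51.6. WRKY33 had a log2FC of 5.69 (SE 0.40, 95% interval 4.73 to 6.65, edgeR FDR 0.000156). The difference of log2 CPM between libraries of the same number was 5.95, 5.58 and 5.66, so the low replicate 1 libraries gave much the same contrast as the others. Without both libraries numbered 1 the log2FC was 5.60, and over 16 alternative settings it ran from 5.39 to 5.89, called in each.

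**Figure D2:**
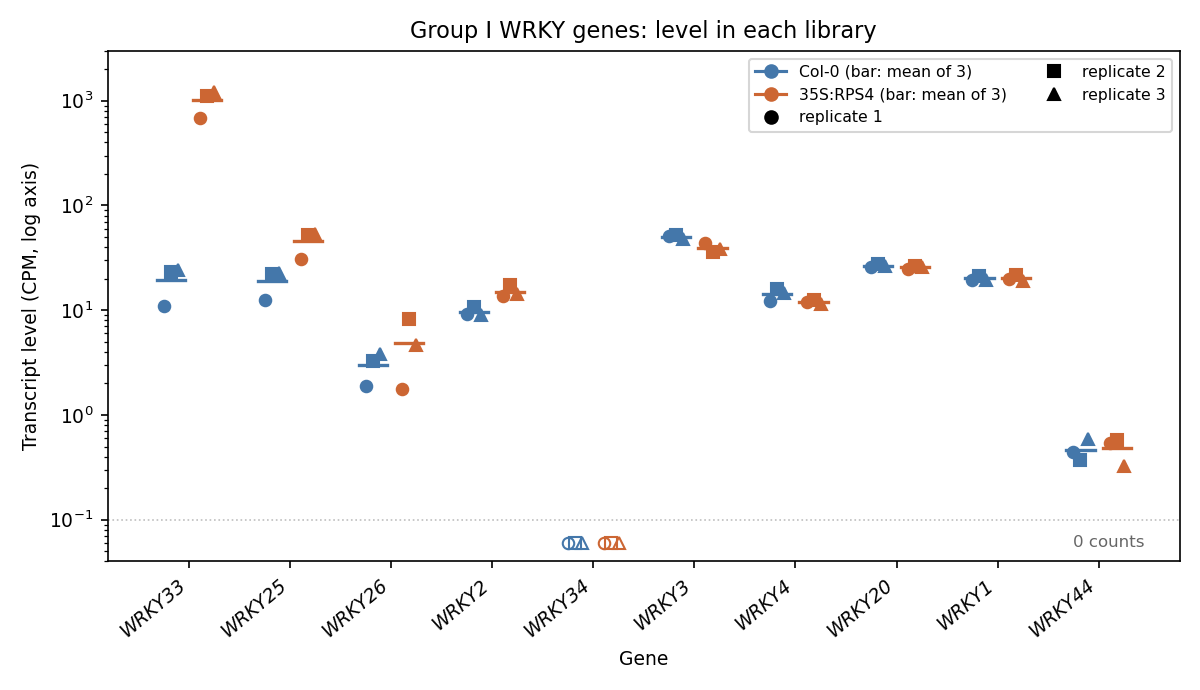
Transcript level of the 10 genes in each library, in CPM on a log axis. Symbols mark the replicate number and horizontal bars the mean of 3 libraries. WRKY33 moves from 11.0 to 24.2 CPM in Col-0 to 681 to 1223 CPM in 35S:RPS4, WRKY25 is higher in every 35S:RPS4 library, WRKY26 and WRKY44 overlap, and the open symbols of WRKY34 below the dotted line stand for 0 counts.

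WRKY33 shares its locus with other transcription units. It overlaps AT2G38480 on the opposite strand by 26 bp, and the long non-coding RNA gene AT2G08965 on the opposite strand by 272 bp. AT2G38480 had 825 reads over the 6 libraries, few beside the 86715 that WRKY33 had in 35S:RPS4 alone. AT2G08965 has no row in the count table. The library kit does not mark strand, so reads of WRKY33 and of its antisense neighbour cannot be told apart where they overlap. The protein relatives of WRKY33 are distant enough for reads to be assigned. The longest identical run between WRKY33 and WRKY25 transcripts was 18 nt, and with WRKY26 it was 17 nt. Across all pairs of the 10 genes it was 29 nt, between WRKY3 and WRKY4.

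WRKY25 (AT2G30250, chromosome 2, 12903208 to 12905338, minus strand) codes for a factor with roles in defence and in tolerance of heat and salt, and can be phosphorylated by MPK4 in vitro. It had 396, 660 and 734 reads in Col-0 and 929, 1526 and 1473 in 35S:RPS4. Its levels were 12.5, 22.3 and 22.7 CPM in Col-0 against 31.2, 51.8 and 53.9 CPM in 35S:RPS4. The groups did not overlap, and again both replicate 1 libraries were the lowest of their genotype. The mean was 2.38-fold higher in 35S:RPS4, at 45.6 ± 12.5 against 19.2 ± 5.73 CPM (SD, n = 3). The log2FC of WRKY25 was 1.25 (SE 0.29, 95% interval 0.57 to 1.94), and at an edgeR FDR of 0.0261 it was not called. Within same-numbered libraries the difference was 1.31, 1.22 and 1.25 on the log2 scale, a far smaller spread than that within each genotype. With the replicate number as a block, WRKY25 had a log2FC of 1.26 (SE 0.07, edgeR FDR 3.44e-06) and was called. It was also called with DESeq2's Wald test (1.24, FDR 6.69e-05) and without both libraries numbered 1 (1.21, edgeR FDR 1.70e-06). In the other 13 of 16 alternatives it was not called, with a log2FC of 1.01 to 1.45 and an FDR of up to 0.0947.

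WRKY26 (AT5G07100, chromosome 5, 2204206 to 2205965, plus strand) is known for heat tolerance together with WRKY25 and WRKY33. It had 60, 97 and 123 reads in Col-0 and 53, 243 and 126 in 35S:RPS4, or 1.90, 3.27 and 3.80 CPM against 1.78, 8.24 and 4.61 CPM. The groups overlapped, since 35S:RPS4 replicate 1 was as low as any Col-0 library. WRKY26 had a log2FC of 0.70 (SE 0.53, 95% interval -0.56 to 1.97, edgeR FDR 0.466), which leaves room for a change of several fold. Without 35S:RPS4 replicate 2, the highest library, the log2FC was 0.09, and without 35S:RPS4 replicate 1 it was 1.10. Without both libraries numbered 1 the log2FC was 0.85 (edgeR FDR 0.0594), not called.

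Proteins of these 3 genes, translated from the TAIR10.1 coding sequences, were 519 residues long for WRKY33, 393 for WRKY25 and 309 for WRKY26. WRKY26 was identical to WRKY33 at 59.0% of aligned positions and to WRKY25 at 56.7%. WRKY25 and WRKY33 were identical at 49.3%. Each protein of the 10 held the WRKY heptapeptide 2 times, as group I requires. Before the first heptapeptide, serine followed by proline, the minimal site for mitogen-activated protein kinases, occurred 5 times in WRKY33 and WRKY26 and 2 times in WRKY25. In the other proteins such pairs numbered from 1 in WRKY44 to 7 in WRKY2, and 4 in WRKY34.

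WRKY2 (AT5G56270, chromosome 5, 22779614 to 22783426, plus strand) acts in the asymmetric division of the zygote, in pollen and in the abscisic acid response of seeds. It had 292, 316 and 290 reads in Col-0 and 409, 513 and 387 in 35S:RPS4. In CPM this was 9.25, 10.7 and 8.95 against 13.7, 17.4 and 14.1, and the groups did not overlap. The mean was 9.62 ± 0.907 CPM in Col-0 and reached 15.1 ± 2.01 CPM in 35S:RPS4 (SD, n = 3). The log2FC of WRKY2 was 0.65 (SE 0.13, 95% interval 0.36 to 0.94, edgeR FDR 0.0104), just outside the FDR threshold and below the fold threshold. It lay below the fold threshold in all 16 alternatives, at 0.47 to 0.73, with an FDR under 0.01 in 5 of them, among these the replicate block (FDR 0.00101).

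WRKY34 (AT4G26440, chromosome 4, 13357596 to 13359551, minus strand) is the nearest relative of WRKY2 among the 10, with 63.5% identity over aligned positions, and is known from pollen. It had 0 reads in each of the 6 libraries and was not tested. A count of 0 over 3 libraries allows up to 3 counts at 95% confidence, or 0.0320 CPM in Col-0 and up to 0.0346 CPM in 35S:RPS4, for counting error only. The pollen markers VGD1, VGDH1, MYB97, AGL66 and AGL104 were at 0 or 1 count as well.

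WRKY3 (AT2G03340, chromosome 2, 1014350 to 1017222, minus strand) and WRKY4 (AT1G13960, chromosome 1, 4776283 to 4779420, plus strand) both contribute to resistance against necrotrophs, and their proteins were identical at 76.0% of aligned positions. WRKY3 had 1601, 1553 and 1547 reads in Col-0 and 1294, 1064 and 1057 in 35S:RPS4. It was at 50.7, 52.4 and 47.8 CPM in Col-0 and 43.4, 36.1 and 38.6 CPM in 35S:RPS4, without overlap and lower in 35S:RPS4. The means were 50.3 ± 2.33 and 39.4 ± 3.71 CPM (SD, n = 3), with a log2FC of -0.35 (SE 0.09, 95% interval -0.56 to -0.14, edgeR FDR 0.0325), not called. WRKY3 was the 1 gene of the 9 whose groups were apart in the lower direction, and WRKY2, WRKY25 and WRKY33 were the 3 apart in the higher direction. Over all tested genes, groups were apart in 17.9% higher and 16.3% lower. WRKY3 stayed within the fold threshold in all 16 alternatives (-0.53 to -0.29), with an FDR under 0.01 in 4 of them. At an FDR below 0.01 with no demand on the fold, WRKY33 was the 1 gene of the 9 that passed in the higher direction and 0 passed in the lower, against 7.53 and 2.59% of all tested genes. With the replicate number as a block WRKY2, WRKY25 and WRKY33 passed, 3 in the higher direction and 0 in the lower, against 10.3 and 5.11% of all tested genes. At an unadjusted edgeR p below 0.05 without the block, the same 3 genes were higher and WRKY3 was the 1 lower, where 14.9% of all tested genes were higher and 13.1% lower. DESeq2 and limma voom likewise called 0 lowered.

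WRKY4 was at 12.2, 15.9 and 14.6 CPM in Col-0 and 12.1, 12.5 and 11.4 CPM in 35S:RPS4. The groups overlapped through Col-0 replicate 1. Its log2FC was -0.25 (SE 0.12, 95% interval -0.52 to 0.02, edgeR FDR 0.212).

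Of the other 3 genes, neither WRKY20 nor WRKY1 nor WRKY44 was called, and in each the groups overlapped. WRKY20 (AT4G26640, chromosome 4, 13437005 to 13441884, minus strand) was at 26.7 ± 1.01 CPM in Col-0 and 25.7 ± 0.846 in 35S:RPS4 (SD, n = 3), over a range of 24.7 to 27.7 CPM in the 6 libraries. WRKY20 had a log2FC of -0.05 with a 95% interval of -0.22 to 0.12. WRKY1 (AT2G04880, chromosome 2, 1717833 to 1720526, plus strand), also named ZAP1, was at 20.2 ± 1.04 and 20.2 ± 1.24 CPM. Its interval was -0.19 to 0.20 on the log2 scale. Both intervals leave out changes beyond the fold threshold.

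WRKY44 (AT2G37260, chromosome 2, 15644811 to 15647076, plus strand), also named TTG2, acts with TTG1 in trichomes and in the seed coat. It had 14, 11 and 19 reads in Col-0 and 16, 17 and 9 in 35S:RPS4, the fewest of the tested genes among the 10. The log2FC was 0.04 with a 95% interval of -0.78 to 0.87 that leaves room at this depth for a difference of either sign.

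**Figure D3:**
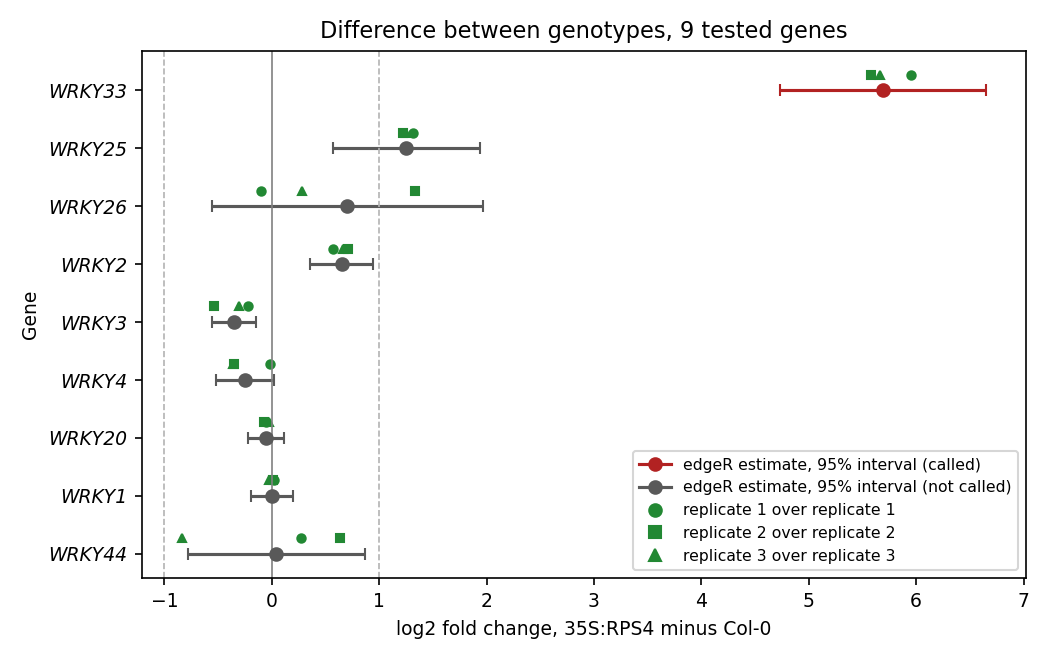
Log2 fold change (35S:RPS4 minus Col-0) of the 9 tested genes with the 95% interval of the edgeR fit, red where called, and above it the difference of log2 CPM between same-numbered libraries. Dashed lines mark a log2FC of -1 and 1. WRKY33 stands at 5.69, WRKY25 at 1.25 with its same-number differences between 1.22 and 1.31, and the same-number differences of WRKY26 and WRKY44 spread to both sides of 0.

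To compare levels between the genes, counts were also divided by transcript length, giving RPKM, the CPM per kilobase. In Col-0 the most abundant of the 10 was WRKY3, at 22.8 ± 1.06 RPKM (SD, n = 3). WRKY25 (10.8 ± 3.22), WRKY20 (10.4 ± 0.393), WRKY1 (9.97 ± 0.512) and WRKY33 (9.63 ± 3.65) followed at levels in RPKM that did not differ beyond their spread. Below them came WRKY4 at 6.30 ± 0.820, WRKY2 at 3.17 ± 0.299, WRKY26 at 1.90 ± 0.621 and WRKY44 at 0.252 ± 0.0592 RPKM. The ranges of WRKY33 and WRKY4 over libraries touched, since the lowest Col-0 library of WRKY33 was at 5.42 RPKM and the highest of WRKY4 at 7.02. WRKY33 held rank 7608 of 18259 tested genes with a known length.

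In 35S:RPS4 the order of levels began with WRKY33 at 497 ± 142 RPKM, rank 147 of 18259. The next was WRKY25 at 25.7 ± 7.06, whose range over libraries, 17.5 to 30.3 RPKM, overlapped that of WRKY3 (17.9 ± 1.68 RPKM, 16.4 to 19.7). WRKY20 at 10.01 ± 0.330 and WRKY1 at 9.98 ± 0.611 RPKM could not be separated. Nor could WRKY4 at 5.30 ± 0.249 and WRKY2 at 4.97 ± 0.664 RPKM. WRKY26 was at 3.09 ± 2.06 and WRKY44 at 0.259 ± 0.0716 RPKM.

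WRKY33 therefore made up a small share of the summed RPKM of the 10 genes in Col-0 and most of it in 35S:RPS4. The shares were 8.33, 14.1 and 15.2% in the Col-0 libraries and 83.2, 86.9 and 88.3% in the 35S:RPS4 libraries, or 12.5 ± 3.68% against 86.1 ± 2.63% (SD, n = 3; two-sided exact permutation p = 0.1, the smallest that 3 against 3 libraries allow). The sum itself went from 75.2 ± 8.92 to 574 ± 149 RPKM, a ratio of 7.63 (exact permutation p = 0.1). Without WRKY33 the other genes summed to 65.6 ± 5.46 and 77.2 ± 8.08 RPKM, a ratio of 1.18 (exact permutation p = 0.2). The ratio of WRKY33 to WRKY25, which needs no scaling between libraries, was -0.38, -0.12 and -0.10 as log2 of RPKM in Col-0 and 4.26, 4.24 and 4.31 in 35S:RPS4. The ratio to WRKY26 was 2.17, 2.48 and 2.31 against 8.22, 6.72 and 7.69 on the same scale. In Col-0 leaves WRKY33 and WRKY25 were thus at about equal levels per length, and the ratio to either relative did not overlap between genotypes (exact permutation p = 0.1 for each, the smallest possible).

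**Figure D4:**
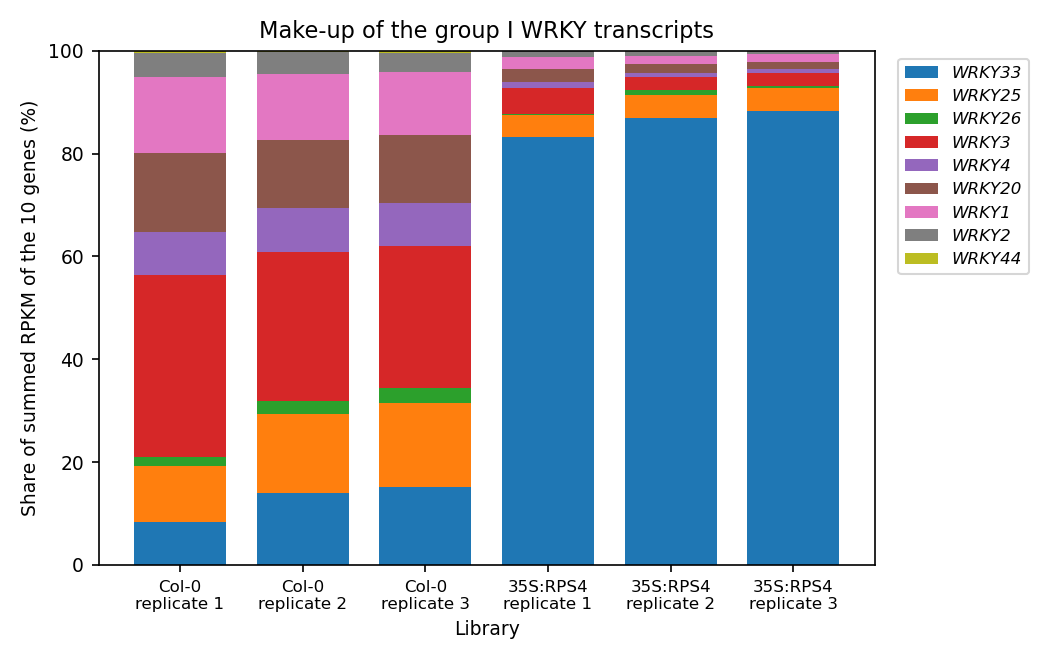
Share of each gene in the summed RPKM of the 10 genes, in percent, for each of the 6 libraries (WRKY34, at 0, adds nothing). WRKY33 fills 8.33 to 15.2% of the Col-0 bars and 83.2 to 88.3% of the 35S:RPS4 bars, while WRKY3 is the widest band in Col-0.

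The count table held 72 WRKY genes, of which 45 were tested. By log2FC, WRKY33 was the 6th of them, behind WRKY40, WRKY46, WRKY51, WRKY30 and WRKY53, none of which belongs to group I. Of the 62 WRKY genes outside the 10, 36 were tested, 14 were raised and 0 were lowered, with a median log2FC of 0.48. The shares over all tested genes were 6.46% raised and 1.37% lowered. The remaining group I genes of the table were WRKY10, WRKY19, WRKY32 and WRKY58. WRKY19 (log2FC -0.01, SE 0.14), WRKY32 (0.02, SE 0.09) and WRKY58 (-0.11, SE 0.69) were not called, and WRKY10 had 0 reads in Col-0 and 3 in 35S:RPS4 and was not tested. WRKY58 ranged from 13 to 137 reads within Col-0 alone, the low value again in replicate 1.

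Profiles over the 6 libraries were compared with that of WRKY33 by the root mean square distance of log2 CPM, with no offset, after centring each gene. The 13360 candidates were tested genes with a mean of at least 5 CPM and a read in each library, and 34 further genes with a 0 in some library could not be placed. The nearest was TCH3 (AT2G41100), a touch-induced calmodulin-like gene, at a distance of 0.138 log2 units and with a log2FC of 5.72. AT5G18470 was at 0.186 (log2FC 5.38) and AT1G73810 at 0.207 (log2FC 5.68). GATL10 (AT3G28340), which codes for a galacturonosyltransferase-like protein, was at 0.219 (log2FC 5.74), and AT1G17147 at 0.220 (log2FC 6.09). Each of the 5 was lowest in the library numbered 1 of either genotype, as WRKY33 was, so these profiles share both the genotype difference and that feature of the libraries.

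Genes that act on WRKY33 protein or with it were higher in many cases. Of 13 kinases and partners, all tested, 9 were raised and 0 lowered, with a median log2FC of 1.71. Over all tested genes 6.46% were raised and 1.37% lowered, with a median log2FC of 0.005. MPK3, which phosphorylates WRKY33, had 64.3 ± 14.2 CPM in Col-0 against 1204 ± 292 CPM (SD, n = 3), a log2FC of 4.23 with an SE of 0.26 (edgeR FDR 9.38e-05). Its upstream kinase genes MKK4 and MKK5 had log2FC values of 4.08 and 1.83. The other WRKY33 kinase, MPK6, was not called, at 31.1 ± 0.254 CPM in Col-0 against 33.3 ± 3.27 CPM.

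The branch around MPK4 was less uniform. MEKK1, a kinase at its head, had a log2FC of 1.71. MPK4 (log2FC 0.20, 95% interval -0.02 to 0.41), MKK1 (0.54, -0.10 to 1.18) and MKK2 (0.40, -0.004 to 0.81) were not called. Their groups were apart and higher in 35S:RPS4, as in 12 of the 13 listed genes, against 17.9% of all tested genes. Below the fold threshold, MKK2 had an edgeR FDR of 0.00788 with the replicate block. MKK1 likewise had 0.00609 without both libraries numbered 1. MKS1, which bridges MPK4 and WRKY33, had 6.76 ± 1.46 CPM against 37.0 ± 9.40 CPM, a log2FC of 2.45 with an SE of 0.24 (edgeR FDR 0.000608). SIB1 and SIB2 code for sigma factor binding proteins that stimulate DNA binding by WRKY33. SIB1 had a log2FC of 2.61 and SIB2 of 1.07, the latter at an FDR of 0.00952. CPK5 and CPK6, calcium-dependent kinases that also phosphorylate WRKY33, had 1.11 (FDR 0.00763) and 1.84. SIB2 and CPK5 lay close to the thresholds and lost the call in 11 and 9 of 16 alternatives. MPK3 overlaps AT3G45645 by 192 bp and MKS1 overlaps AT3G18680 by 159 bp, both on the opposite strand. AT3G45645 has no row in the count table. AT3G18680 had 33056 reads over the 6 libraries, many beside the 630 of MKS1 in Col-0 and 3190 in 35S:RPS4. Reads of such neighbours cannot be told apart where they overlap. By HTSeq's usual rule, reads that match more than 1 counted gene are left out, so those of AT3G18680 would not be added to MKS1 there. The effect on the counts was not tested.

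Genes reported elsewhere as targets of WRKY33 made a further list of 13. Of these 8 were tested, 6 were raised and 0 were lowered, against 6.46 and 1.37% of all tested genes. The median log2FC of the 8 was 5.08. PAD3, CYP71A12, IDL6 and PROPEP3 had too few Col-0 reads and passed the filter on low counts only through 35S:RPS4. The 6 of 8 and the median therefore follow in part from that filter. Genes of camalexin and indole glucosinolate metabolism were among the raised. PAD3, the last enzyme of camalexin synthesis, had 0 reads in the 3 Col-0 libraries and 84, 271 and 233 in 35S:RPS4, at least 212-fold higher when 3 counts over the group are taken as the Col-0 floor (edgeR FDR 0.00482). It lost the call without the filter on low counts and when Col-0 replicate 2 or 3 or 35S:RPS4 replicate 2 or 3 was left out (FDR 0.0122 to 0.0260). CYP71A12, which acts earlier in the pathway, went from 11 reads in all to 367 (log2FC 5.13, SE 0.77). It lost the call with limma voom and without Col-0 replicate 1 or 2 or 35S:RPS4 replicate 2 or 3. Its near-identical neighbour CYP71A13 had 1 read against 3, and reads of such a pair can be misassigned. CYP71A13 also overlaps AT2G30766, with 370 reads over the 6 libraries, by 572 bp on the opposite strand. What either did to the count of CYP71A13 was not tested. MYB51, an activator of indole glucosinolate synthesis, had 6.44 ± 1.35 CPM against 394 ± 93.2 CPM (SD, n = 3), a log2FC of 5.93 with an SE of 0.26 (edgeR FDR 2.80e-05).

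The other listed targets included genes of ethylene, peptide and hormone signalling. ACS6, an ethylene synthesis enzyme, had a log2FC of 4.56 (SE 0.18), and its relative ACS2 had 5 reads against 38 and was not tested. IDL6, which codes for a small secreted peptide, had 8 reads in all against 825 (log2FC 6.74, SE 0.69), not called with limma voom (FDR 0.0129). PROPEP3, a precursor of danger-signal peptides, had 4 reads against 131 (log2FC 5.03, SE 0.60). PROPEP2 had 0 against 50 and was not tested, at least 18.0-fold higher against the same floor. These folds of low genes moved with single Col-0 libraries, as without Col-0 replicate 3 the log2FC was 6.21 for PROPEP3 and 6.84 for CYP71A12, and without Col-0 replicate 2 it was 7.56 for IDL6.

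None of the 3 genes that WRKY33 is reported to repress was called. NCED3, a synthesis enzyme of abscisic acid, had a log2FC of -0.53 (95% interval -1.17 to 0.11). The ethylene response factor gene ORA59 had 318, 444 and 234 reads in Col-0 against 171, 164 and 57, with a log2FC of -1.26 (SE 0.41, edgeR FDR 0.0897), not called. With the replicate number as a block ORA59 was called lowered, at -1.30 (edgeR FDR 0.00169), as with DESeq2's Wald test, at -1.27 (FDR 0.00764). The groups of NCED3 and of ORA59 did not overlap and were lower in 35S:RPS4. Among the 8 tested targets, groups were apart in 6 higher and 2 lower, against 17.9 and 16.3% of all tested genes. NCED5, a relative of NCED3, had 29 reads against 20 and was not tested. CYP82C2, an activated target in indole metabolism, had 2 against 0.

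**Figure D5:**
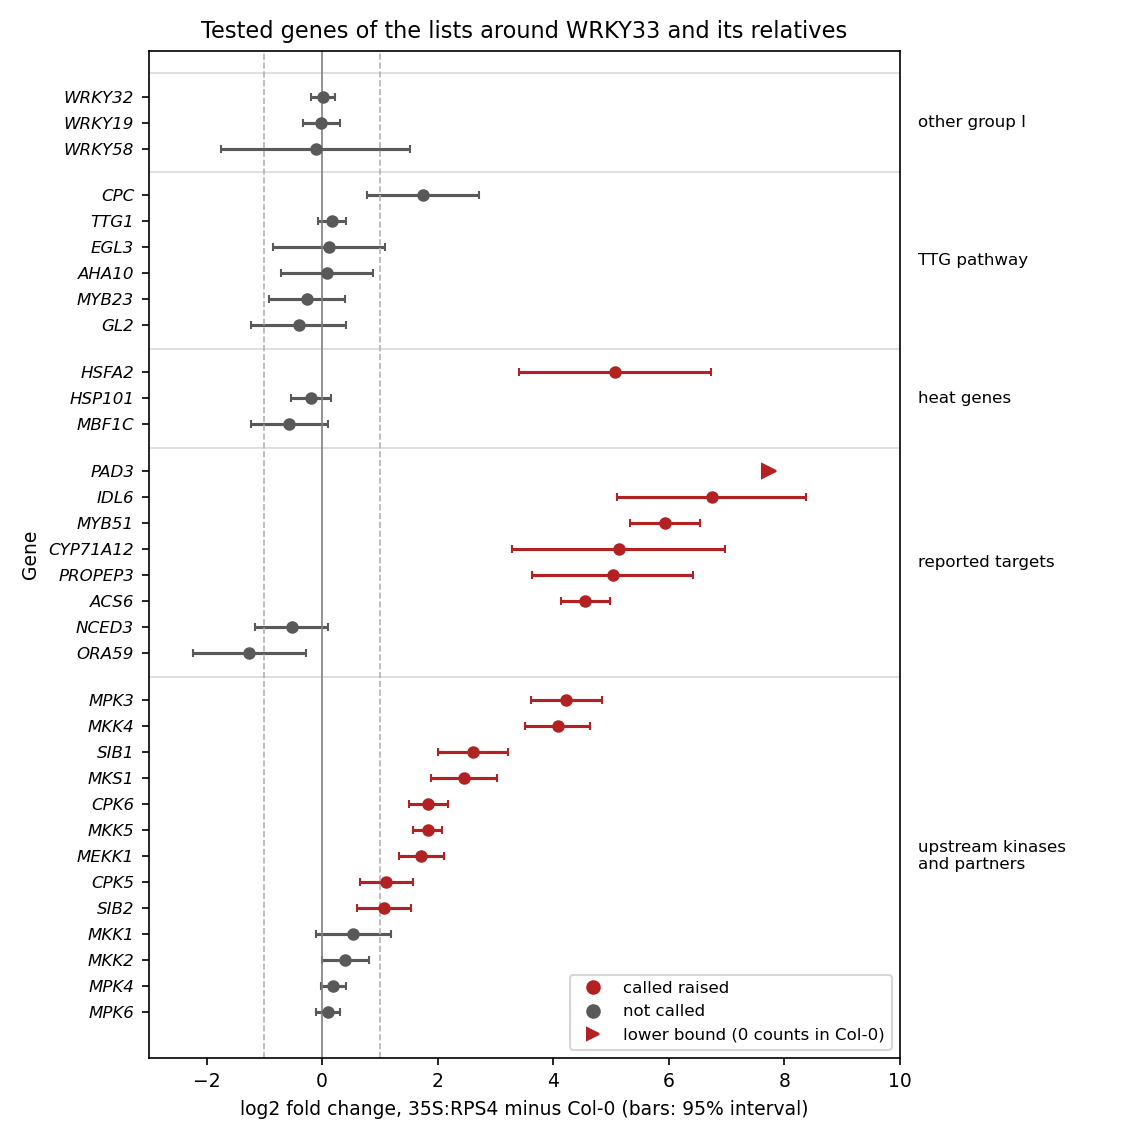
Log2 fold change (35S:RPS4 minus Col-0) with 95% interval for the tested genes of 5 lists: kinases and partners of WRKY33, its reported targets, heat genes, the TTG pathway of WRKY44, and other group I WRKY genes. Red points are called raised, grey points are not called, and the triangle is the lower bound of PAD3, which had 0 counts in Col-0. In the lists of kinases and of targets 9 of 13 and 6 of 8 tested genes are red, against 0 of 6 in the TTG pathway. PAD3, CYP71A12, IDL6, PROPEP3, HSFA2 and CPC passed the filter on low counts only through 35S:RPS4. Among all tested genes 6.46% were raised.

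Of 4 heat genes linked to WRKY25, WRKY26 and WRKY33, 3 were tested, 1 was raised and 0 were lowered. Among all tested genes 6.46% were raised and 1.37% lowered. HSFA2, a heat shock factor, had 1 read in Col-0 and 43 in 35S:RPS4, 46.5 times as many per library size, with 95% counting bounds of 7.90 and 1877 (edgeR FDR 0.00227). HSFA2 passed the filter on low counts only through its 35S:RPS4 libraries. It lost the call without Col-0 replicate 2 or 3 or without 35S:RPS4 replicate 2 (FDR 0.0124 to 0.0132). The chaperone gene HSP101 (log2FC -0.19) and the coactivator gene MBF1C (-0.57) were not called. MBF1C had 96 reads in Col-0 and 60 in 35S:RPS4. It overlaps AT3G24503, with 28257 reads over the 6 libraries, by 124 bp on the opposite strand. HSFB1 was listed at 0 in all libraries, and so was AT4G36988, the entry for the upstream open reading frame of its transcript. By HTSeq's usual rule, reads that match more than 1 gene are left out. Whether this emptied both entries was not tested, so the 0 is not taken here as a measure of HSFB1 expression.

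Genes of the TTG pathway, in which WRKY44 acts, gave no call, where 6.46% of all tested genes were raised and 1.37% lowered. Of 13 genes 6 were tested, with a median log2FC of 0.10, and 2, GL1 and TT12, had no read. TTG1 was at 31.0 ± 1.85 and 34.9 ± 4.04 CPM (SD, n = 3). CPC, an inhibitor of trichome fate, had 6, 9 and 6 reads against 14, 27 and 25, with a log2FC of 1.75 (SE 0.41, edgeR FDR 0.0249), and among the 16 alternatives was called only without 35S:RPS4 replicate 1, at 2.00 with an FDR of 0.00969. It passed the filter on low counts only through its 35S:RPS4 libraries. CPC was also the 1 gene of the 6 whose groups did not overlap (17.9% of all tested genes were apart in that direction) and the 1 with an unadjusted edgeR p below 0.05 (14.9% of all tested genes, in that direction), and DESeq2 called 0.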

How the data were processed

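The authors deposited raw counts of reads per gene, not normalized, 1 column per library. Per the labels they used TAIR10, FastQC 0.11.2, TopHat2 2.0.10 and HTSeq, and the strand setting is not given in the sources used here. HTSeq's summary rows (6.45 to 8.30% of counts) were set aside. Of 32678 genes 31912 matched the RefSeq TAIR10.1 annotation, the source of symbols, lengths, sequences and coordinates.

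Counts were tested with edgeR 4.0.16 (R 4.3.3): TMM factors, default filter on low counts, robust quasi-likelihood fit with genotype as the sole term, FDR by Benjamini-Hochberg over all 18382 tested genes, and the study's thresholds (FDR below 0.01, absolute log2FC above 1, two-sided). CPM used TMM-scaled library sizes. Single values were compared by exact permutation (scipy 1.17.1), and proteins aligned with Biopython 1.88. The code was tested on simulated data. Alternatives covered scaling, filter, DESeq2 1.42.0, limma 3.58.1 voom, a replicate block and left-out libraries. The text names all 10 genes, RPS4, the listed genes that carry each list's counts, and the 5 profiles nearest WRKY33. The genes and lists were chosen with earlier results of these data known.

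Replicate numbers are shared between genotypes. Across genes, libraries of the same number departed from their group means together, with correlations of 0.47, 0.18 and 0.31 for numbers 1 to 3, so the numbers were taken to pair the libraries. Between different numbers the correlations ran from -0.38 to 0.19. Chi-square values between libraries of a group were 7.02 to 32.1 per gene, far from those of a library counted again. Total counts of 28659022 to 31007551 bound the precision, and intervals or floors from counts cover counting error only, since PCR copies carry no molecular identifiers.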

Additional observations from a re-analysis of the deposited data

How the results depend on the processing

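WRKY33 was called raised in all 16 alternatives (log2FC 5.39 to 5.89, FDR at most 0.00180). The number of raised genes among the 10 was 2 instead of 1, through WRKY25, with the replicate block, with DESeq2's Wald test and without both libraries numbered 1, and 1 with each single library left out. No gene of the 10 was lowered in any alternative. With each library left out, the share of WRKY33 ran from 11.2 to 14.6% in Col-0 and from 85.0 to 87.6% in 35S:RPS4, and with plain counts it was 11.7 and 85.5%. Over all tested genes, 391 were lowered instead of 251 with upper-quartile factors, 377 with plain library size and 404 without both libraries numbered 1. Single left-out libraries gave 99 to 337 lowered genes (99 without Col-0 replicate 3, 105 without replicate 2, and 108 and 128 without 35S:RPS4 replicates 2 and 3) and 841 to 1374 raised genes. The block gave 1329 raised and 330 lowered genes. Apart from WRKY25 and ORA59, the block changed no call among the 10 genes or the lists of kinases, targets, heat, TTG and other group I genes. The nearest profiles, the markers and the WRKY genes outside group I were not compared. Scaling by upper quartile, plain library size or reference genes moved the median log2FC of all genes to -0.17, -0.16 and -0.12. WRKY1, at 0.003 in the reported fit, ran from -0.18 to 0.05 and was below 0 in 9 of 16 alternatives, those 3 scalings included. Of 687 values of single genes under the alternatives, 34 lost a call, 6 gained one and 647 did neither, and 45, from 9 uncalled genes, changed sign. Of 160 list counts 26 differed from the reported count, as the raised kinases and partners ran from 7 to 9 and the raised targets from 4 to 7. Depth limits WRKY34, WRKY44 and the targets with few Col-0 reads.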
